A study of Mus musculus with 8 samples.

Results

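AP-1 and immediate early genes were described in mouse blood stem and progenitor cells through 10 genes of the 53700 in the count table. They were the JUN family (Jun, Junb and Jund), the FOS family members Fos and Fosb, the zinc-finger factors Egr1 and Klf6, Ier2, Zfp36 and Btg2, taken by gene symbol and not by any measured value. All 10 symbols were found once each. A filter on low counts passed 12132 genes of the table, among them 9 of the 10, and Fos was left out of the fits. The genes lie on chromosomes 4 (Jun), 8 (Junb, Jund and Ier2), 12 (Fos), 7 (Fosb and Zfp36), 18 (Egr1), 13 (Klf6) and 1 (Btg2).

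RNA came from donor cells sorted 13 weeks after marrow of CD45.2 mice had been given to irradiated wild-type CD45.1 recipients. Within the LSK gate (lineage-negative cells with Sca-1 and Kit), haematopoietic stem cells (HSC) were taken as CD48-negative and CD150-positive, and multipotent progenitors (MPP) as CD48-positive and CD150-negative. Donors were Nfat5 +/+ with Vav-Cre (WT), Nfat5 fl/fl with Vav-Cre (N5), IFNAR1-deficient (IFNAR), or carried both defects (DKO). Each of the 8 libraries was 1 pool of 5 recipients with equal cell numbers per mouse, so every combination of cell type and genotype had 1 library, named here as HSC_WT, MPP_N5 and so on. Vav-Cre acts in blood-forming cells, and the recipients' own tissues were wild-type. The labels do not give Cre status for the IFNAR libraries. Since no combination was repeated, the 4 libraries of a cell type, which differ in genotype, served as its n of 4. P-values of HSC against MPP, with genotype in the model, therefore measure how the difference between cell types varies over the 4 genotypes. Those for Nfat5 and Ifnar1 loss measure the spread left around additive terms for cell type and both losses. Neither measures the spread between repeated pools, and the SDs given below are not their basis.

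AP-1 is a dimer of leucine-zipper proteins. JUN proteins pair with each other or with FOS and ATF proteins, whereas FOS proteins need a partner from another family. Immediate early genes are copied within minutes of a growth factor, cytokine or stress signal, with no need for new protein, through kinases that act on factors such as SRF, ELK1 and CREB that are already bound. Their messages are short-lived, and several of them, such as those for ZFP36 and BTG2, encode proteins that speed the removal of other messages. In mouse blood, Egr1 is known as a gene of resting stem cells, whose loss lets them divide and leave the marrow.

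The promoters of 8 of the 10 genes, all but Egr1 and Ier2, were in the RefSeq promoter table for GRCm38.p6, which is an earlier build than that of the counts. The 250 bases upstream of the annotated start are shown for 6 genes, the JUN and FOS members first, because the motifs found near the start differ between them. Each is 5′ to 3′ on the strand of the gene. Capitals mark letters that match one of the motifs searched in those bases and the 50 that follow.
Jun, chr4:95052223-95052472 (minus strand): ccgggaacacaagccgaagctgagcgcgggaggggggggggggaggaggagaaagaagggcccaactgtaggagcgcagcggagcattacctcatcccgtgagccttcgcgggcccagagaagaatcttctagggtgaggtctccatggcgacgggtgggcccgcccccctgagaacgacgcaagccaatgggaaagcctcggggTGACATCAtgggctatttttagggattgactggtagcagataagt
Junb, chr8:84978749-84978998 (minus strand): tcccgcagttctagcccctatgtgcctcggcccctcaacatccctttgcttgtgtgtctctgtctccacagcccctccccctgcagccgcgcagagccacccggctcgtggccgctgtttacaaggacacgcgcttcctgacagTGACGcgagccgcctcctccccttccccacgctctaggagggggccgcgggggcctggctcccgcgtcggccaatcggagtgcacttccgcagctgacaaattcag
Fos, chr12:85473640-85473889 (plus strand): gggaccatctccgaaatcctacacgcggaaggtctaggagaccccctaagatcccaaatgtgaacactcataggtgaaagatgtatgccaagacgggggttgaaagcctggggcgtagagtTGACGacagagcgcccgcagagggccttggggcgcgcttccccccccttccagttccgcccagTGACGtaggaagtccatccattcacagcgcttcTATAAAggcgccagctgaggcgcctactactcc
Fosb, chr7:19310046-19310295 (minus strand): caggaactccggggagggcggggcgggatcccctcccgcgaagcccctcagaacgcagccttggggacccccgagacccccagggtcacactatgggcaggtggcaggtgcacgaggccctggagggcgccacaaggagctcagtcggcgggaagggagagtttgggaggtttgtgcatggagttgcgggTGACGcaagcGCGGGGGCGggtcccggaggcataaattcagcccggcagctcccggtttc
Zfp36, chr7:28379229-28379478 (minus strand): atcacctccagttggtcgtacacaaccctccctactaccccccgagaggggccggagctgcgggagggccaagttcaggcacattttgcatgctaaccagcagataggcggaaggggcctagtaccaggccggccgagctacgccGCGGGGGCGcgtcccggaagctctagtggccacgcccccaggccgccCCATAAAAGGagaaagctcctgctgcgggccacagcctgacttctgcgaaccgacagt
Btg2, chr1:134079156-134079405 (minus strand): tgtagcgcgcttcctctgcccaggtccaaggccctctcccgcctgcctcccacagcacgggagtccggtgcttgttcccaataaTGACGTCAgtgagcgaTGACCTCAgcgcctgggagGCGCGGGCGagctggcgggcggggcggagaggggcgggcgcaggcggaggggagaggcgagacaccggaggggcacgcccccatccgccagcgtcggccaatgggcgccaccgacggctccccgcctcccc

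Both strands were searched, and overlapping motifs were counted separately. The AP-1 site spelled TGANTCA was in 0 of the 8 windows, against 7.93% of 27025 mouse promoters of the same length. AP-1 sites of any other spelling were not counted under this motif. Jun, Klf6 and Btg2 held TGACNTCA, the cAMP response element or its close variant, which 8.97% of promoters held. In Jun it read TGACATCA and began 45 bases before the start. The core TGACG was present in Fos, Fosb, Junb and Btg2, and in 21.0% of all promoters, and Fos carried it at 129 and 66 bases before the start. Fosb, Zfp36 and Btg2 held the EGR motif GCGNGGGCG, found in 5.55% of promoters. The TATAAA motif was in the windows of Fos and Junb and in 14.2% of promoters. It began 33 bases before the start in Fos, and at the annotated start itself in Junb, beyond the bases shown. Zfp36 alone among the 8 held a CArG box, the binding motif of SRF, at 58 bases before the start, and 1.57% of promoters held one. Each match describes letters in this window and says nothing of binding in these cells. Bases further upstream were not searched, so a motif not matched here, such as a CArG box in Fos, may lie there.

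Libraries held 28871693 to 47205950 counts, and the number of genes detected in each was 13510 to 14781. Markers of the sorted cells lay on the side of the labels. The 5 progenitor markers Cd48, Flt3, Cd34, Dntt and Mpo were lower in every HSC library than in every MPP library, and 5 of 6 stem cell markers, Slamf1 among them, were higher. Markers of other cell types were also counted. Those of monocytes and macrophages summed to 0 to 12.6 CPM (counts scaled to library size) in HSC, where 4 of 6 were at 0 in all libraries, and to 62.0 to 245 CPM in MPP. Megakaryocyte markers summed to 245 to 463 CPM in HSC and 45.6 to 164 CPM in MPP, and erythroid markers to 259 to 858 and 168 to 304 CPM. The neutrophil list summed to 551 to 607 CPM in HSC and 545 to 1920 CPM in MPP, the B cell list to 28.0 to 90.9 and 51.3 to 83.8 CPM, and the stroma and endothelium list to 0 to 75.6 and 4.99 to 43.6 CPM. Of the 6 neutrophil genes 5 had a positive log2 fold change, and Elane was the lower in HSC, at means of 37.7 against 935 CPM. The stroma and endothelium value of 75.6 CPM was Emcn in HSC_DKO. Elane and Emcn were named after their values were seen. T and NK markers summed to 34.0 to 66.2 CPM in HSC and 300.0 to 371 CPM in MPP, with 4 of 5 at 0 in all HSC libraries and 3 of 5 at 0 in all MPP libraries, so that nearly all of that sum was Nkg7. Whether these counts come from other cells or from the sorted cells, and their part in the results below, was not tested. Transcripts of the targeted genes followed the labels in some libraries and not in others. Nfat5 measured 33.2, 22.7, 3.12 and 35.5 CPM in HSC_WT, HSC_N5, HSC_IFNAR and HSC_DKO, and 5.59, 7.69, 0.193 and 11.5 CPM in the MPP libraries in that order. Ifnar1 measured 122, 126, 113 and 35.1 CPM in HSC and 37.2, 87.9, 43.8 and 125 CPM in MPP. Thus Nfat5 was not lowest in the N5 or DKO libraries, and Ifnar1 was low in HSC_DKO but highest of the MPP libraries in MPP_DKO. A count over the whole gene need not show a loss of some exons, and the deleted exons are not given. The genotypes were taken from the labels and could not be checked with these counts.

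Some genes were at or near 0 in a single library of a cell type. Of genes with at least 10 CPM in 3 or more HSC libraries, 7.48% had an HSC library at 3 counts or fewer, and 2.42% did so in MPP. Among the 10 genes, Btg2 was such a gene in HSC. Levels below are CPM after TMM scaling, which sets libraries to a common level through genes that change little.

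The 10 genes fell into 3 kinds of pattern. Egr1 was higher in every HSC library than in every MPP library, with a mean of 70.8 CPM in HSC and 4.10 CPM in MPP. Fos leaned the other way, close to nothing in HSC and present in 3 of 4 MPP libraries. MPP_N5 had no Fos count, so its groups overlapped. The other 8 genes also had HSC and MPP libraries that overlapped, and among them Jun, Junb and Zfp36 varied by less than 2-fold within each cell type. 0 of the 9 genes tested passed an adjusted p of 0.05 in the edgeR quasi-likelihood test of HSC against MPP with genotype as a block. In that test 0.0165% of the 12132 genes passed, the 2 genes Dntt and Cd34, and 1225 genes had an unadjusted p under 0.05, Egr1 the only one of the 10. DESeq2 called 15.5% of genes and the bias-adjusted version of the edgeR test 0.882%, and in both Egr1 alone of the 10 was called. Limma-voom called 1.29% of genes and 0 of the 10.

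**Figure D1:**
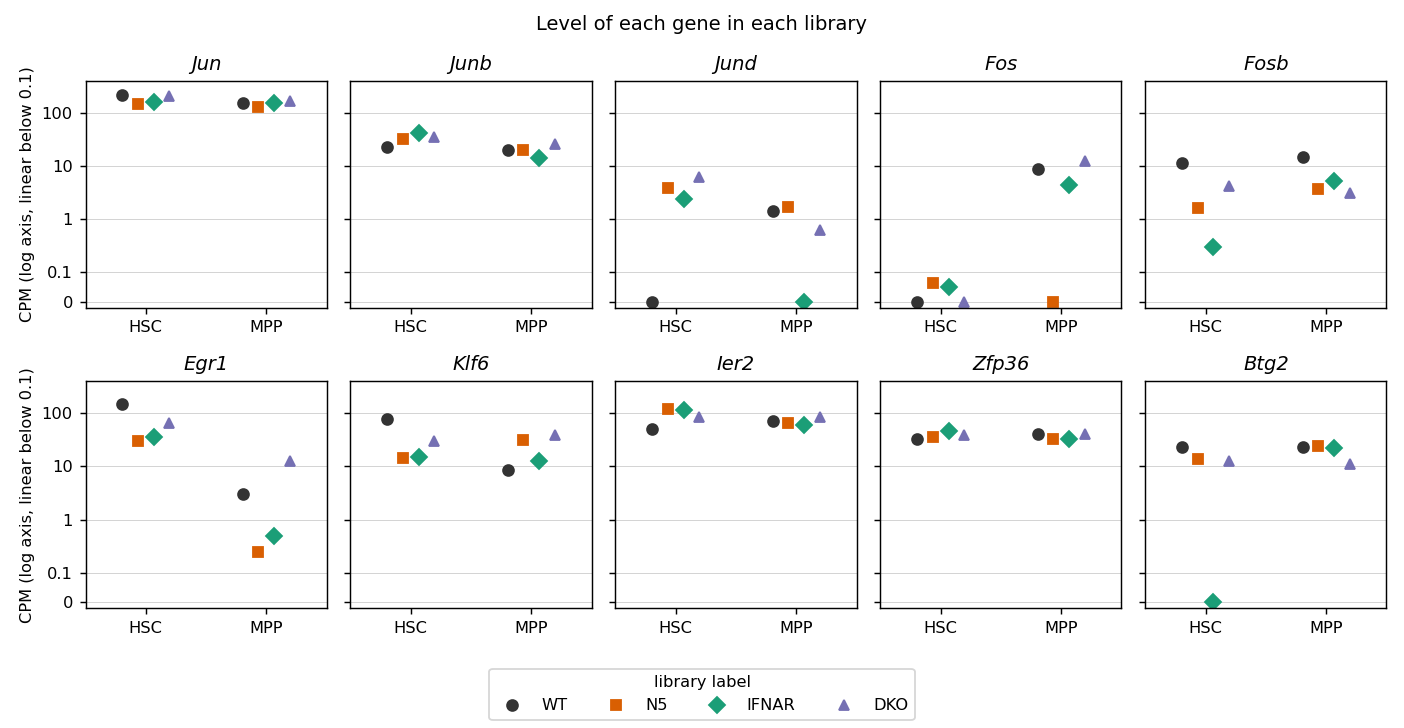
Level of each of the 10 genes in each library, in CPM on a log axis that is linear below 0.1, with HSC and MPP side by side and symbols for the 4 donor genotypes. Egr1 is the gene whose HSC points (30.4 to 150 CPM) all lie above its MPP points (0.246 to 12.6 CPM), and Fos lies at or near 0 in HSC.

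Among the JUN proteins, Jun, the founding subunit, was the most abundant message per length. It measured 220, 150, 164 and 209 CPM in HSC_WT, HSC_N5, HSC_IFNAR and HSC_DKO. In MPP it measured 153, 132, 156 and 166 CPM in the same order of genotypes. HSC_WT and HSC_DKO were above every MPP library, while HSC_N5 and HSC_IFNAR lay inside the MPP range. The means were 186 ± 33.9 CPM in HSC and 152 ± 14.4 CPM in MPP (SD, n = 4), with HSC the higher in 4 of 4 genotype pairs by 0.07 to 0.53 on the log2 scale. The edgeR log2 fold change of 0.28 (SE 0.15) had an adjusted p of 0.651.

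Junb, a JUN protein that can hold back the activity of c-Jun, measured 23.0, 31.9, 42.0 and 35.0 CPM in HSC and 20.1, 20.1, 14.4 and 26.2 CPM in MPP. Only HSC_WT lay within the MPP range, below MPP_DKO, and the HSC library was the higher in 4 of 4 pairs. The means were 32.9 ± 7.87 and 20.2 ± 4.80 CPM (SD, n = 4). The log2 fold change was 0.70 (SE 0.61), with an adjusted p of 0.825 by edgeR. In the earlier annotation, Junb shares 173 exon bases on the opposite strand with Prdx2, which had 12296 to 17194 counts per library, and these libraries keep no strand. How many Junb counts come from that overlap is not known.

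Jund, in many tissues the JUN gene that is expressed without a stimulus, was low and uneven here. It was listed at 0 in HSC_WT and at 3.82, 2.40 and 6.27 CPM in HSC_N5, HSC_IFNAR and HSC_DKO. In MPP it was at 1.42, 1.72 and 0.623 CPM in the WT, N5 and DKO libraries and at 0 in MPP_IFNAR. The 3 HSC libraries with a count were above all MPP libraries, and the one without lay with the lowest of them. Its log2 fold change of 2.15 carried an SE of 3.16, and the adjusted p by edgeR was 0.916.

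Divided by exon length, the JUN family summed to 78.4 ± 9.14 CPM per kb in HSC (67.1 to 88.7) and 59.3 ± 5.68 CPM per kb in MPP (53.5 to 66.9, SD, n = 4). HSC_N5, the lowest HSC library, was barely above MPP_DKO, the highest MPP library, at 67.1 against 66.9 CPM per kb. Jun made up 74.1% ± 7.37 of the family in HSC and 80.3% ± 3.99 in MPP. Junb held 23.6% ± 6.38 and 18.8% ± 3.41, and Jund 2.39% ± 1.86 and 0.98% ± 0.865, so each share differed between the cell types by less than its SD in HSC.

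**Figure D2:**
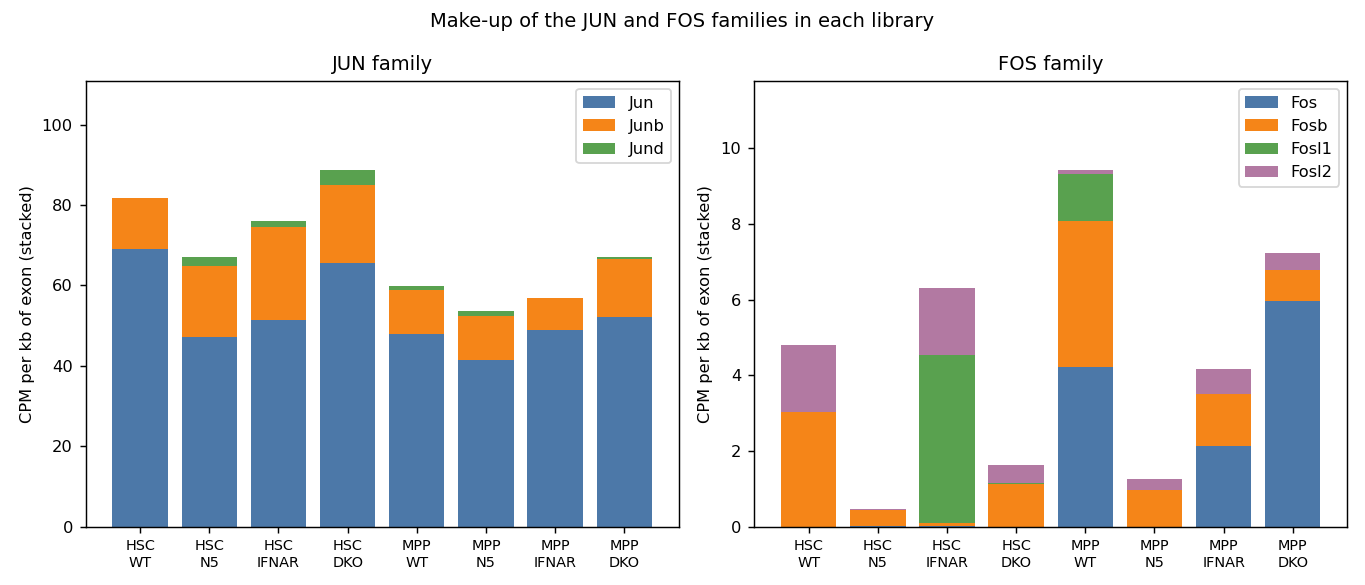
Stacked bars of CPM per kb of exon for the JUN family on the left and the FOS family on the right, 1 bar for each library and 1 colour for each gene. The JUN family stands at 53.5 to 88.7 CPM per kb, mostly Jun, while the FOS family stays at 0.464 to 9.42 CPM per kb with a make-up that differs from library to library.

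Fos, the partner of JUN in the classical AP-1 dimer, was all but missing from HSC. It had 0, 2, 2 and 0 counts in HSC_WT, HSC_N5, HSC_IFNAR and HSC_DKO, at or under the floor of 3 counts. In MPP it had 268, 0, 164 and 444 counts, which were 8.87, 0, 4.51 and 12.6 CPM. MPP_N5, with no count, lay with the HSC libraries, so the groups overlapped. Over the pooled libraries there were 4 counts in HSC and 876 in MPP, a ratio of 255 after scaling, with an exact 95% interval of 99.2 to 937 that covers counting error only. At these depths 3 counts correspond to 0.0633 to 0.105 CPM. The gene did not pass the filter on low counts, which asks for a minimum level in 4 libraries, and has no test. Fewer cells that express a gene and less RNA in each cell cannot be told apart in bulk pools.

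The sum of the monocyte and macrophage markers was 189, 62.0, 245 and 192 CPM in MPP_WT, MPP_N5, MPP_IFNAR and MPP_DKO. It was lowest in the library where Fos had no count, but highest in MPP_IFNAR, where Fos was the lowest of the 3 libraries with counts. Of genes with a mean of at least 10 CPM, the 3 most like Fos over the 8 libraries were Csf1r, Clec12a and Ly6c2, by the root mean square difference of log2 CPM after centring each gene. That difference was 1.86, 2.06 and 2.09 for them, against a median of 3.39 over 8950 candidates. Csf1r, which encodes the receptor of a macrophage growth factor, measured 0.737 CPM in MPP_N5 and 38.6 to 73.5 CPM in the other MPP libraries, and at most 0.029 CPM in HSC. Csf1r was highest in MPP_IFNAR, so it did not share the full order of Fos. On the same marker list, F13a1 measured 82.3, 12.4, 110 and 82.7 CPM in MPP_WT, MPP_N5, MPP_IFNAR and MPP_DKO. Ly86 measured 13.4, 3.86, 28.5 and 19.2 CPM in those libraries. Both were lowest in MPP_N5, as Fos was, and at 0 in all HSC libraries. Cd14 was at 0 in MPP except for 0.0275 CPM in MPP_IFNAR. F13a1, Ly86 and Cd14 were named after their values were seen. Ccr2 measured 24.6, 28.3, 33.6 and 42.7 CPM in MPP_WT, MPP_N5, MPP_IFNAR and MPP_DKO, and Adgre1 29.8, 16.7, 0 and 0 CPM. The part of monocyte-like cells or their RNA in the Fos level was not tested.

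Fosb, the closest relative of Fos among the genes described, was low in both cell types. It measured 11.5, 1.60, 0.307 and 4.22 CPM in HSC and 14.7, 3.65, 5.20 and 3.14 CPM in MPP. The WT library was the highest within each cell type, and the ranges overlapped. Means of 4.40 ± 4.99 and 6.66 ± 5.40 CPM (SD, n = 4) gave a log2 fold change of -1.16 (SE 1.31, adjusted p 0.888 by edgeR).

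With the related genes Fosl1 and Fosl2 added, the FOS family summed to 3.30 ± 2.71 CPM per kb in HSC and 5.53 ± 3.57 CPM per kb in MPP (SD, n = 4). The JUN family was the larger in every library, by a ratio per kb of 12.1 to 145 in HSC and 6.35 to 42.5 in MPP. Fos itself was 0% to 6.68% of the FOS family in HSC and 0% to 82.3% in MPP. In HSC_IFNAR most of the family was Fosl1, which was at 8.25 CPM there, at 0.0422 CPM in HSC_DKO, and at 0 in the other 2 HSC libraries.

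Egr1, a zinc-finger activator induced beside Fos by many of the same signals, was the one of the 10 genes whose HSC and MPP libraries did not overlap. In HSC_WT, HSC_N5, HSC_IFNAR and HSC_DKO it measured 150, 30.4, 35.9 and 66.9 CPM, from 5181, 931, 1405 and 3169 counts. In MPP it measured 3.08, 0.246, 0.495 and 12.6 CPM, from 93, 7, 18 and 445 counts. Every HSC library was above every MPP library, the closest being HSC_N5 at 30.4 and MPP_DKO at 12.6 CPM. This was so for 4.73% of all genes tested, and another 5.65% had every HSC library below every MPP library.

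The means of Egr1 were 70.8 ± 55.3 CPM in HSC and 4.10 ± 5.81 CPM in MPP (SD, n = 4). Within genotypes the HSC library was higher by 5.58, 6.65, 6.03 and 2.40 on the log2 scale in the WT, N5, IFNAR and DKO pairs, so the DKO pair had the smallest gap. The fitted log2 fold change was 5.40 (SE 1.07). Its adjusted p was 0.245 by edgeR, 0.0226 by the bias-adjusted version with a log2 fold change of 4.00, 0.156 by limma-voom and 8.90e-11 by DESeq2. The call thus depends on the method, while the direction held in all 17 alternatives tried, with log2 fold changes of 4.00 to 6.22. Leaving out the HSC or the MPP library of a genotype gave nearly the same fit, so these are not 17 separate checks.

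By the same measure of likeness, Ecm1, Cish and Gtf2ird2 had the profiles nearest to Egr1, with root mean square differences of 1.12, 1.37 and 1.44 against a median of 3.19. Cish, a feedback inhibitor of cytokine signalling, measured 104, 38.0, 90.6 and 27.4 CPM in HSC and 17.9, 1.16, 3.03 and 10.6 CPM in MPP. Ecm1, which encodes a secreted matrix protein, measured 21.1 to 38.1 CPM in HSC and 0 to 4.07 CPM in MPP. Gtf2ird2 measured 44.5 to 112 CPM in HSC and 0.055 to 17.3 CPM in MPP. The lowest MPP library was MPP_N5 for Ecm1 and Cish, as for Egr1, and MPP_IFNAR for Gtf2ird2.

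**Figure D3:**
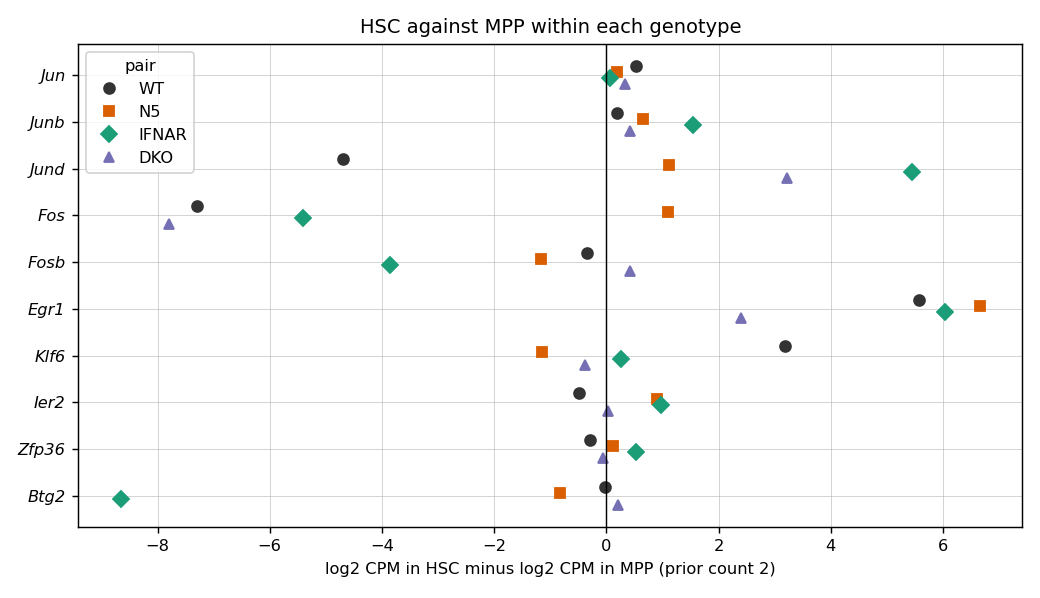
Difference of log2 CPM (prior count 2) between the HSC and the MPP library of the same genotype, for each of the 10 genes and 4 pairs. The 4 points of Egr1 lie at 2.40 to 6.65, and those of Jun and Junb are all above 0 but small. Fos at -7.8 to 1.1, Jund at -4.7 to 5.44 and Btg2 at -8.65 to 0.21 spread widely, with pairs where a library had no count.

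Klf6, a Kruppel-like zinc-finger factor, varied as much within a cell type as between them. In HSC it measured 78.9, 14.3, 14.9 and 29.6 CPM, and in MPP 8.57, 31.6, 12.5 and 38.9 CPM. HSC_WT was the highest of the 8 libraries and MPP_WT the lowest, so the WT pair differed by 3.19 on the log2 scale while the HSC library was the higher in 2 of 4 pairs. Its log2 fold change of 0.35 (SE 0.97, adjusted p 0.969 by edgeR) became -0.43 without HSC_WT and -0.43 without MPP_WT. Leaving out either library of a genotype is nearly the same fit.

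Ier2, an immediate early gene for a nuclear regulator of transcription, had the highest mean per length in HSC. It measured 51.4, 123, 117 and 86.4 CPM in HSC and 71.4, 65.7, 59.8 and 84.6 CPM in MPP. HSC_WT was below all MPP libraries and the other 3 HSC libraries were above all of them. The means of 94.5 ± 32.9 and 70.4 ± 10.6 CPM (SD, n = 4) gave a log2 fold change of 0.36 (SE 0.34, adjusted p 0.848 by edgeR).

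Zfp36 encodes tristetraprolin, which binds AU-rich elements in cytokine and immediate early messages and speeds their decay. It varied little between libraries, at 33.5, 36.1, 47.0 and 38.5 CPM in HSC and 40.9, 33.5, 32.5 and 40.2 CPM in MPP. Only HSC_IFNAR lay above the MPP range. The SD of its log2 CPM was 0.209 in HSC and 0.172 in MPP. Of genes within 2-fold of its level, 2.85% in HSC and 3.59% in MPP had a smaller SD. The log2 fold change was 0.07 (SE 0.44, adjusted p 0.988 by edgeR), and it was -0.08 without HSC_IFNAR and -0.09 without MPP_IFNAR, again nearly the same fit.

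Btg2 encodes an antiproliferative protein, a target of p53, that brings a deadenylase complex to messages. It measured 22.9, 13.8, 0 and 12.7 CPM in HSC and 23.2, 24.7, 22.7 and 11.0 CPM in MPP. HSC_IFNAR had no count among its 38317688, a limit of 0.0766 CPM at 3 counts, whereas MPP_IFNAR had 825 counts. Apart from that library the HSC values lay inside the MPP range. The log2 fold change of -1.23 (SE 2.15) had an adjusted p of 0.937 by edgeR.

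The spread of the members among themselves followed their level only in part. In HSC the SD of log2 CPM was 0.267 for Jun, 0.363 for Junb and 0.579 for Ier2, but 1.04 for Egr1 and 1.15 for Klf6. Btg2, with no count in HSC_IFNAR, had 4.09. In MPP it was 0.141 for Jun, 0.351 for Junb and 0.212 for Ier2, but 0.549 for Btg2 and 1.04 for Klf6. For the genes with a mean of at least 10 CPM, the median SD was 0.579 over 7 of the members and 0.68 over all 9198 genes in HSC, and 0.282 over 6 members and 0.497 over 8981 genes in MPP. These medians are not matched for level. Of genes within 2-fold of their level in HSC, 81.4% had a smaller SD than Egr1, 67.7% than Btg2 and 64.8% than Klf6. For Ier2, Jun, Junb and Zfp36 this share was 53.9%, 23.1%, 9.84% and 2.85%. In MPP it was 68.2% for Klf6 and at most 28.4% for the other members of that level.

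Per length, the order of the levels differed between cell types mainly by Egr1 and Fos. In HSC, Ier2 at 62.1 ± 21.6 and Jun at 58.3 ± 10.6 CPM per kb led and did not differ beyond their spread. Next came Junb at 18.2 ± 4.35, Egr1 at 15.8 ± 12.3, Zfp36 at 11.2 ± 1.68 and Klf6 at 8.15 ± 7.22 CPM per kb, with Egr1 and Klf6 overlapping their neighbours. Btg2 at 4.51 ± 3.44, Jund at 1.87 ± 1.57 and Fosb at 1.16 ± 1.32 CPM per kb were not separated by their spread, and Fos was last at 0.0138 CPM per kb. In MPP, Jun at 47.6 ± 4.52 and Ier2 at 46.3 ± 6.97 CPM per kb led, followed by Junb at 11.2 ± 2.65 and Zfp36 at 10.6 ± 1.26, pairs that did not differ beyond their spread. Btg2 at 7.43 ± 2.31 and Klf6 at 5.42 ± 3.47 CPM per kb overlapped, as did Fos at 3.08 ± 2.58, Fosb at 1.76 ± 1.43, Egr1 at 0.915 ± 1.29 and Jund at 0.565 ± 0.468 (SD, n = 4). Egr1 was thus 4th of 10 in HSC and 9th in MPP, and Fos 10th and 7th.

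Summed over the 10 genes, the level was 591, 405, 423 and 489 CPM in the HSC libraries and 345, 313, 309 and 396 CPM in the MPP libraries. Without Jun and Egr1 the sums were 221, 225, 224 and 213 CPM in HSC and 189, 181, 152 and 217 CPM in MPP. The range of the HSC sums then touched that of the MPP sums, through HSC_DKO at 213 and MPP_DKO at 217 CPM. Of the 9 members tested, 7 had a positive log2 fold change, against 44.2% of all genes tested, and their median was 0.35 against -0.10 over all genes.

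The 10 genes did not move as a block between libraries. HSC_WT was the highest HSC library for Jun, Egr1, Fosb, Klf6 and Btg2 and the lowest for Junb, Jund, Ier2 and Zfp36. Jun, Egr1 and Klf6 had the same order in HSC, from WT through DKO and IFNAR to N5, and Ier2 had exactly the reverse. In MPP, MPP_DKO was the highest for 6 of 10 genes, Fos, Jun, Junb, Egr1, Ier2 and Klf6, and the lowest for Fosb and Btg2. Egr1 and Fos shared their order there, from DKO through WT and IFNAR to N5. These orders rest on 4 libraries each and are a description.

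**Figure D4:**
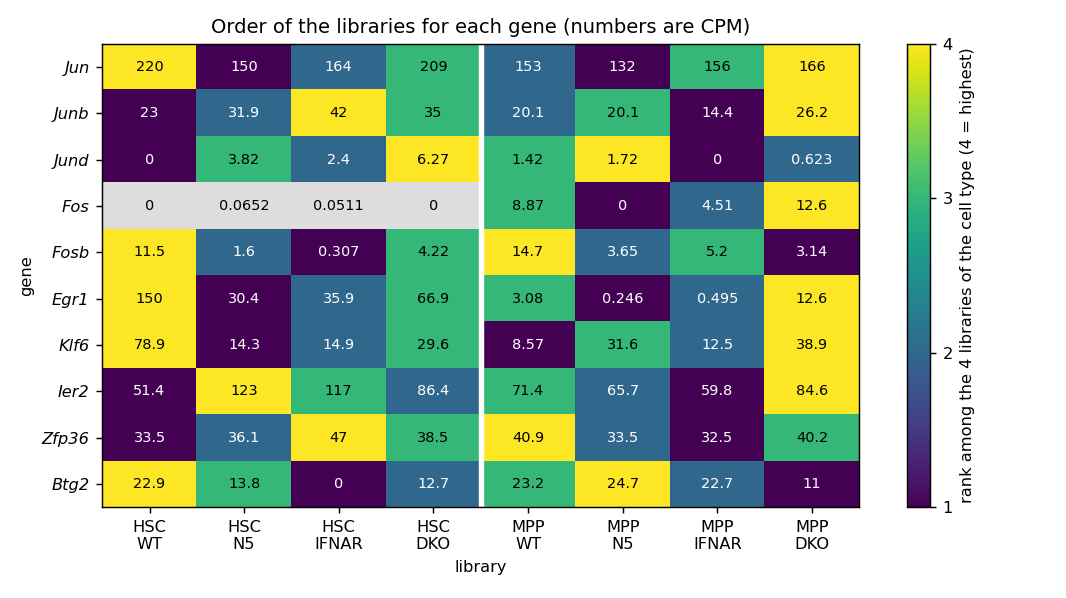
CPM of each gene in each library, coloured by its rank among the 4 libraries of the same cell type, with 4 the highest and grey where all 4 were at or under 3 counts. HSC_WT holds both the highest values (220 CPM for Jun, 150 for Egr1) and the lowest (51.4 CPM for Ier2, 0 for Jund), and MPP_DKO is the highest for 6 genes.

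Removing single libraries changed which genes had separate groups. With all 8 libraries only Egr1 had no overlap. Without HSC_WT there were 4 such genes of the 10, Egr1, Junb, Jund and Ier2, where 15.3% of all genes tested had no overlap in either direction. Without MPP_N5 the genes were Egr1 and Fos, against 13.3% of all genes, and without MPP_DKO they were Egr1 and Junb, against 14.1%. Egr1 was separate in each of the 8 cases.

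Labels of genotype were followed next. For Nfat5 loss, the N5 and DKO libraries were set against the WT and IFNAR libraries with cell type and Ifnar1 loss in the model, and edgeR called 0.0% of genes, with 338 at an unadjusted p under 0.05. 0 of the 9 members was called, and 0 had an unadjusted p under 0.05. DESeq2 called 166 genes, with 0 of the members among them. Fitted log2 fold changes of the members ran from -0.84 (SE 1.44) for Fosb to 1.39 (SE 1.99) for Jund, with an adjusted p of 1 for all 9 by edgeR. Jund was the one member that was higher in all 4 pairs of libraries differing in Nfat5, and 11.1% of all genes moved the same way in all 4. Its level was 0 CPM in HSC_WT and 3.82 in HSC_N5, 2.40 in HSC_IFNAR and 6.27 in HSC_DKO, and in MPP 1.42 against 1.72 and 0 against 0.623 CPM.

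For Ifnar1 loss edgeR likewise called 0.0% of genes, with 398 at an unadjusted p under 0.05 and 0 of the members among them. DESeq2 called 233 genes and 0 of the members. The members' log2 fold changes ran from -1.04 (SE 1.72) for Btg2 to 0.49 (SE 1.93) for Egr1, again with an adjusted p of 1 for all 9 by edgeR. Btg2 was lower in all 4 pairs differing in Ifnar1, against 12.1% of genes that moved the same way in all 4. Those pairs were 22.9 and 0 CPM in HSC_WT and HSC_IFNAR, 13.8 and 12.7 in HSC_N5 and HSC_DKO, 23.2 and 22.7 in MPP_WT and MPP_IFNAR, and 24.7 and 11.0 in MPP_N5 and MPP_DKO. The first and last pairs were wide and the other 2 narrow.

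Differences of Egr1 between genotypes changed sign with the state of the other gene. In MPP, Egr1 was lower in N5 than in WT by 3.37 on the log2 scale but higher in DKO than in IFNAR by 4.52. In HSC the same differences were -2.30 and 0.90. Both the N5 and the IFNAR library were below WT for Egr1 in each cell type, and the DKO library was above both. Fos in MPP went the same way, at 8.87 CPM in WT and 0 in N5 but 4.51 in IFNAR and 12.6 in DKO. With 1 library per combination these differences have no replicate check.

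Other AP-1 subunits showed the same mix of overlap and dropout. Of 9 such genes 5 were tested, 4 had a positive log2 fold change and 0 were called by edgeR, with a median of 0.39, and Atf7 was the one gene with an unadjusted p under 0.05 and the one called by DESeq2. Atf7, a CREB-like partner of JUN proteins, averaged 82.9 ± 38.5 CPM in HSC and 30.1 ± 27.0 CPM in MPP (SD, n = 4), with HSC higher in 4 of 4 pairs and a log2 fold change of 1.78 (SE 0.67, adjusted p 0.481 by edgeR). Batf, which pairs with JUN proteins in lymphoid and myeloid cells, averaged 53.0 ± 20.3 and 42.6 ± 20.7 CPM, and Atf2, a kinase-regulated partner of JUN, 53.4 ± 26.6 and 72.0 ± 31.2 CPM. Both overlapped between cell types. Atf3 was listed at 0 except in MPP_WT, at 7.02 CPM.

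Many other immediate early genes were barely detected. Egr2, Egr3, Klf4 and Ccn1 were listed at 0 in all 8 libraries. Of the 31 genes on the list 23 were tested, and 16 had a positive log2 fold change, with a median of 0.17. The test of edgeR called 0 of them, with Nfkbia and Myc at an unadjusted p under 0.05, and DESeq2 called those genes and Maff, 3 in all. Nfkbia, which encodes the NF-kB inhibitor induced by NF-kB itself, was the one with separate groups, at 193 ± 41.8 CPM in HSC and 91.7 ± 31.1 CPM in MPP (SD, n = 4, log2 fold change 1.11, SE 0.29, adjusted p 0.324 by edgeR). Myc was lower in HSC in 4 of 4 pairs, with means of 511 ± 87.8 and 676 ± 96.9 CPM and a log2 fold change of -0.41 (SE 0.11, adjusted p 0.340 by edgeR). Nfkbia, Myc, Maff and the genes listed at 0 were named after their values were seen, as was Atf3.

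The 3 genes that the naming rule took from this list each had libraries at or near 0. Dusp5, a nuclear phosphatase of MAP kinases, was at 0, 0, 14.1 and 13.7 CPM in HSC and 41.0, 12.5, 0 and 5.83 CPM in MPP. Tnfaip3, an inhibitor of NF-kB signalling, ranged from 0 to 95.1 CPM in HSC and from 0 to 45.4 CPM in MPP. Per1, a clock gene with an immediate early response, ranged from 2.45 to 24.5 CPM and from 0.165 to 11.8 CPM. All 3 overlapped between the cell types.

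Kinases and factors that act upstream of these genes all passed the filter. Of the 19 on that list 8 had a positive log2 fold change, and the median was -0.17. The test of edgeR called 0, with 1 at an unadjusted p under 0.05, and DESeq2 called 1, Mapkapk2. Mapkapk2, a kinase that phosphorylates tristetraprolin, was at 20.1, 14.1, 0 and 0 CPM in HSC and 31.8, 78.7, 25.8 and 11.9 CPM in MPP. Rps6ka3, a ribosomal S6 kinase, ranged from 0 to 44.8 and from 15.2 to 54.1 CPM, and Mapk8, which encodes JNK1, from 1.06 to 33.5 and from 0.0993 to 8.64 CPM.

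Partners of EGR1, BTG2 and ZFP36 were tested for all 12 genes listed. The test of edgeR called 0 of them and 0 had an unadjusted p under 0.05, while DESeq2 called 1, Cnot6l. The median log2 fold change was -0.28, with 3 genes positive. Nab2, a corepressor of EGR1 and itself an EGR1 target, was at 7.16, 23.8, 13.8 and 25.1 CPM in HSC and 6.55, 3.83, 0 and 5.95 CPM in MPP, without overlap, with a log2 fold change of 2.75 (SE 2.17, adjusted p 0.796 by edgeR). The gap was narrow between HSC_WT at 7.16 and MPP_WT at 6.55 CPM, and HSC_WT was the library with the highest Egr1. Whether the level of Nab2 follows that of Egr1 was not tested. Nab1, a relative of Nab2, averaged 32.1 ± 21.8 and 13.1 ± 6.40 CPM. Cnot6l, a deadenylase subunit of the complex that BTG2 and ZFP36 recruit, was lower in HSC in 4 of 4 pairs, at 30.5 ± 13.7 against 57.1 ± 14.8 CPM (SD, n = 4, adjusted p 0.506 by edgeR).

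Heat shock genes, a separate stress response, were set beside the immediate early genes. Of 11 genes 9 were tested, 1 had a positive log2 fold change and the median was -0.16. The test of edgeR called 0, with Hspa1a, Hsp90aa1 and Hspd1 at an unadjusted p under 0.05, and DESeq2 called these 3. Hspa1a, the inducible HSP70, was at 19.3, 0, 0 and 0 CPM in HSC and 24.0, 11.7, 23.4 and 9.74 CPM in MPP, with an adjusted p of 0.467 by edgeR. Hsp90aa1, the stress-inducible HSP90, averaged 1410 ± 164 CPM in HSC and 1960 ± 310 CPM in MPP (SD, n = 4), without overlap and with an adjusted p of 0.251 by edgeR. Hspd1, a mitochondrial chaperonin, averaged 337 ± 107 and 584 ± 133 CPM. Whether this response bears on the levels of the 10 genes was not tested.

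**Figure D5:**
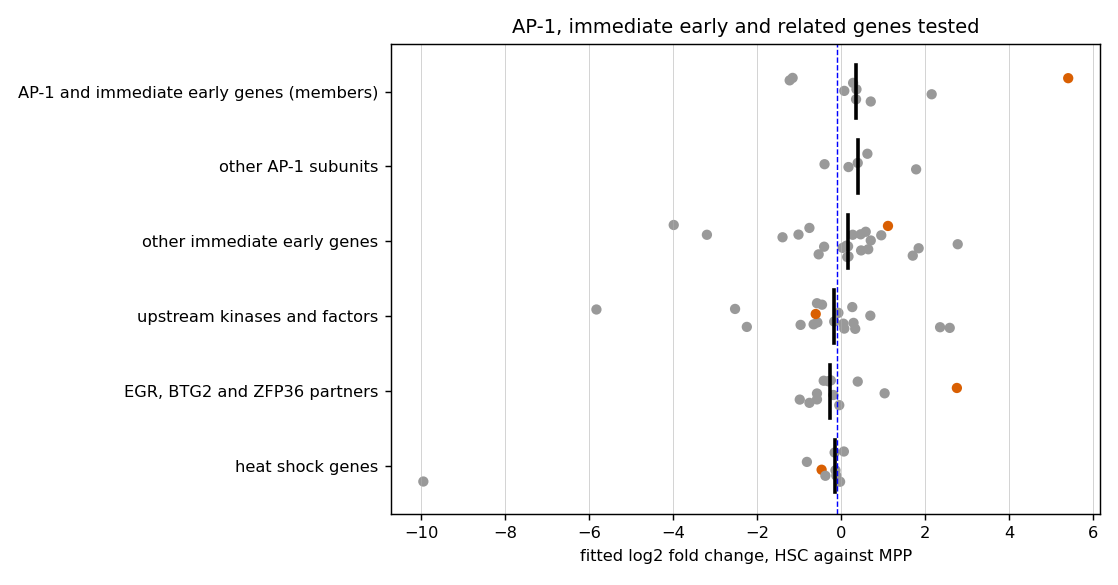
Fitted log2 fold change of HSC against MPP for each tested gene of 6 lists, 1 point per gene, with a black bar at the median of each list and a dashed line at the median of all genes tested (-0.10). Orange points are genes whose HSC and MPP libraries did not overlap, among them Egr1, Nfkbia, Nab2 and Hsp90aa1.

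The mean profile of the 10 genes on the log2 scale was matched most nearly by Phrf1, Cxxc1 and Metap1d. Their root mean square differences over the 8 libraries were 0.147, 0.157 and 0.198, against a median of 0.873 over 8950 candidates. Phrf1 measured 116, 115, 54.3 and 162 CPM in HSC and 154, 89.2, 72.6 and 150.0 CPM in MPP, so that IFNAR was its lowest library in each cell type. Between IFNAR and WT, the largest differences behind the mean profile came mostly from genes with no count in a library. IFNAR minus WT was -8.66 for Btg2, 5.44 for Jund and -4.99 for Fosb in HSC, and -4.7 for Jund in MPP. Of these, Fosb had counts on both sides, 396 in HSC_WT and 12 in HSC_IFNAR. The summed CPM of the 10 genes was lowest in HSC_N5, at 405 against 423 in HSC_IFNAR, and in MPP_IFNAR, at 309.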

How the data were processed

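Raw counts per gene, as whole numbers, were deposited by the authors for 8 libraries. Libraries of polyadenylated RNA were made with Smart-Seq2, per the labels' protocols, which marks neither molecules nor strand, so intervals and floors cover counting error only. STAR 2.7.8a, RSEM 1.3.0 and GRCm39 are named per the submitters' processing notes. The sources used here give neither the annotation release nor the step from RSEM's estimates to whole numbers.

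Counts were tested with edgeR 4.0.16 (quasi-likelihood, installed default method) in R 4.3.3, with TMM scaling and filterByExpr by cell type. The 12132 genes kept held 99.46% of counts. P-values were adjusted by Benjamini-Hochberg over these at 0.05. The contrast of cell types had genotype as a block, with 3 residual degrees of freedom. Nfat5 and Ifnar1 loss were tested as additive terms beside cell type, with 4 residual degrees of freedom. DESeq2 1.42.0, limma 3.58.1 (voom), the bias-adjusted edgeR method, other scalings, filters and models, thinned counts and leaving out each library were alternatives. The script was tested on simulated data. Single libraries were compared as log2 CPM with a prior count of 2. Exon lengths came from GENCODE M21, an earlier build, by gene identifier. The 10 genes and all lists were chosen with earlier results of these data known. From each list the text names up to 3 genes with the largest log2 fold change among those with a mean of at least 10 CPM in a cell type, and says where a gene was named otherwise. 1 gene of the lists is not reported here.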

Additional observations from a re-analysis of the deposited data

Results flagged for a closer look

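Btg2 had a library set apart from the other 3 in each cell type, relative to the range of the 4. In HSC the library of the IFNAR genotype was at 0 CPM against 12.7 to 22.9 CPM, and the gap on the log2 scale took 0.902 of the range of the 4 libraries. In MPP the DKO library was at 11.0 CPM against 22.7 to 24.7 CPM, and the gap took 0.898 of the range. These were 2 of 19 groups of 4 libraries examined, where chance alone passes about 1 in 20. The SD of log2 CPM of Btg2 in MPP was 0.549, below the median of 0.802 for genes within 2-fold of its level.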

How the results depend on the processing

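HSC against MPP, for which edgeR called 2 genes, gave 1880 calls with DESeq2, 156 with limma-voom, 107 with the bias-adjusted method, 207 with no genotype block, 32 with additive genotype terms and 23 with a filter of 10 CPM in 4 libraries. Leaving out 1 library gave 0 to 0 calls, with fewer degrees of freedom. Of the 10 genes 1 was called, Egr1, with DESeq2 and 1 with the bias-adjusted method, and 0 to 0 when a library was left out. For Nfat5 loss DESeq2 called 166 genes. For Ifnar1 loss DESeq2 called 233 genes, limma-voom 1 and the bias-adjusted method 1. Genes of the 10 without overlap numbered 1 to 4 when a library was left out. Of 151 alternative values of the 9 members' fold changes, 145 kept their direction and side of the threshold, 2 passed it (Egr1) and 4 reversed: Klf6 at -0.43 without HSC_WT and -0.43 without MPP_WT, and Zfp36 at -0.08 without HSC_IFNAR and -0.09 without MPP_IFNAR. For each gene the reversals come from nearly the same fit, as given below. Why the fold changes reversed there was not tested. When a library was left out, these log2 fold changes ran from -0.43 to 0.93 for Klf6, -0.09 to 0.19 for Zfp36, 0.46 to 3.76 for Jund, -2.03 to -0.21 for Btg2, -1.78 to -0.37 for Fosb, 0.15 to 0.64 for Ier2, 0.42 to 0.87 for Junb, 0.19 to 0.35 for Jun and 4.82 to 6.22 for Egr1. The adjusted p of Egr1 was 0.335 to 0.639 by edgeR when a library was left out. Fos, Fosb and Jund did not pass the filter of 10 CPM. Genotype paired the HSC and MPP libraries in the main model, and the count without that block is given above. With that block, a library whose partner was left out adds nothing to the contrast of cell types. Leaving out either library of a genotype was therefore nearly the same fit, so the alternatives above are not all separate checks. Replicate numbers paired no libraries, since each group holds 1.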
